A study of Homo sapiens with 6 samples.

Results

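The cyclins, the cyclin-dependent kinases (CDKs), the inhibitors of the CDKs and the proteins of the RB family form the core machinery that moves a cell through its division cycle. The 34 genes described here were chosen by name as members of that machinery, with the phosphatases, kinases, adaptors and checkpoint kinases that act on it, and all 34 were found among the 20026 genes measured. Cyclins bind and switch on CDKs, which phosphorylate the RB proteins and thereby free E2F factors to drive genes for DNA replication and mitosis. The INK4 and CIP/KIP inhibitors block CDKs, WEE1 and PKMYT1 restrain them by phosphorylation, and the CDC25 phosphatases remove those marks. In liver cancer the cyclin D, CDK4 and RB axis is often altered.

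RNA-seq was done on 6 libraries of HepG2, a human liver cancer cell line, with 2 libraries for each of 3 groups. Scr cells received a scramble control and carry the genotype label WT. For the KO cells of miR-23a and of miR-27a, Cas9 and GFP were delivered on a plasmid with a pair of guides around the mature miRNA, and GFP-sorted single cells were grown into clones. The study also transfected the empty plasmid, and it describes its scramble cells as selected colonies too. The labels do not say whether the libraries of a group came from separate clones or cultures. Differences between clones therefore cannot be told apart from those of the edit. The deletions in the study's miR-23a KO clones were small and homozygous, and of its miR-27a KO clones 1 carried a homozygous deletion and the other a heterozygous deletion with an insertion. Both miRNAs are cut from a primary transcript that also holds miR-24-2, so an edit at either miRNA can alter its neighbours, which limits each group, and the comparison between the KO groups, as a model of the loss of a single miRNA. Some label wording, such as triple-negative, does not describe liver cells, and groups were taken from the titles. The edited miRNAs were not measured in these mRNA libraries, so group membership was taken from the labels alone.

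The mature sequences of the targeted miRNAs are shown because the groups are defined by them. Both were matched in the RefSeq table for GRCh38.p14, and capitals mark the seed, bases 2 to 8. Both lie on the minus strand, miR-23a-3p at chr19:13836595-13836615 and miR-27a-3p at chr19:13836447-13836467.
hsa-miR-23a-3p: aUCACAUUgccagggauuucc
hsa-miR-27a-3p: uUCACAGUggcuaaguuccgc
The seeds differ, so the letters that pair with them in a transcript differ too, AATGTGA for miR-23a-3p and ACTGTGA for miR-27a-3p.

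Depth was 14891283 and 14405247 counts for Scr, 16515266 and 15930762 for miR-23a KO, and 15850575 and 15947316 for miR-27a KO, and each of the 34 members had counts in every library. The members together held 26530 and 29009 counts in the Scr pair, 32451 and 38455 in the miR-23a KO pair, and 28717 and 29210 in the miR-27a KO pair. The label HepG2 was checked against 10 liver markers, and all 10 had counts in every library. Their summed level was 29561 and 37041 CPM (counts scaled to library size after TMM normalization) in the Scr pair, 31932 and 33507 in the miR-23a KO pair, and 25868 and 25757 in the miR-27a KO pair. SERPINA1, a protease inhibitor secreted by hepatocytes, or ALB, serum albumin, was the most abundant of them in each library. ALB stood at 10250 and 15023 CPM in the Scr pair, 7934 and 14889 in the miR-23a KO pair, and 2087 and 2147 in the miR-27a KO pair, and AFP, alpha-fetoprotein, at 2547 and 3891 CPM, 3825 and 6643, and 184 and 191, so the miR-27a KO libraries held the least of both. They held the most of TF, transferrin, with 6545 and 6736 CPM against 3263 and 2253 in Scr, and more SERPINA1, with 12757 and 12451 against 10567 and 10960, so the markers did not move together. Of the leukocyte markers, 5 of 6 were in the table, with a summed level of 377 and 411 CPM in the Scr pair, 132 and 189 in the miR-23a KO pair, and 1501 and 1564 in the miR-27a KO pair. Nearly all of that was LYZ, lysozyme, while PTPRC, which defines leukocytes, had at most 2 counts in any library. The 2 of 6 fibroblast markers in the table, led by PDGFRB, summed to 17.2 and 29.1 CPM in the Scr pair, 29.95 and 20.1 in the miR-23a KO pair, and 5.75 and 5.11 in the miR-27a KO pair, and COL1A1 had at most 2 counts. The 3 of 4 endothelial markers, led by PECAM1, summed to at most 6.97 CPM in any library. The 4 of 4 cholangiocyte markers, led by KRT19, summed to 362 and 342 CPM in the Scr pair, 265 and 174 in the miR-23a KO pair, and 320 and 320 in the miR-27a KO pair. Of the 2 of 3 markers of the HEK293 kidney line, LHX1 led with at most 2.52 CPM and PAX2 had at most 2 counts. The part of these markers in the members' values was not tested.

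The miR-23a KO libraries stood apart from each other, and every result on miR-23a KO below rests on them. Taking members whose counts in a pair reached 40, the median squared difference within the pair was 73.85 times the sampling noise in miR-23a KO, 11.7 times in Scr and 1.65 times in miR-27a KO. Over all such genes it was 123 times, 12.1 times and 1.81 times. Of 33 members, 15 lay over 1.5-fold apart in the miR-23a KO pair, against 5 of 33 in Scr and 1 of 32 in miR-27a KO. Over all genes the shares were 69.0%, 19.6% and 4.04%. Within the miR-23a KO pair the members, like all genes, sorted by base composition. Of 16 members with a transcript GC content under 45%, 14 were higher in replicate 2, and of 11 with a GC content over 50%, 8 were higher in replicate 1, while in Scr these were 13 of 16 and 5 of 11. Across the 33 members, which are not independent replicates, the ratio of replicate 2 to replicate 1 had a correlation of -0.61 with GC content and 0.67 with the log2 of transcript length, and in Scr these were -0.63 and 0.54. Over all genes the miR-23a KO pair had -0.68 and 0.48, and the Scr pair -0.41 and 0.19. After the trend of each library with GC content and length was removed, 8 of 33 members were still over 1.5-fold apart in miR-23a KO and 1 in Scr, against 39.9% and 13.7% of genes. P-values here measure only the spread between these libraries, which may be technical.

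**Figure D1:**
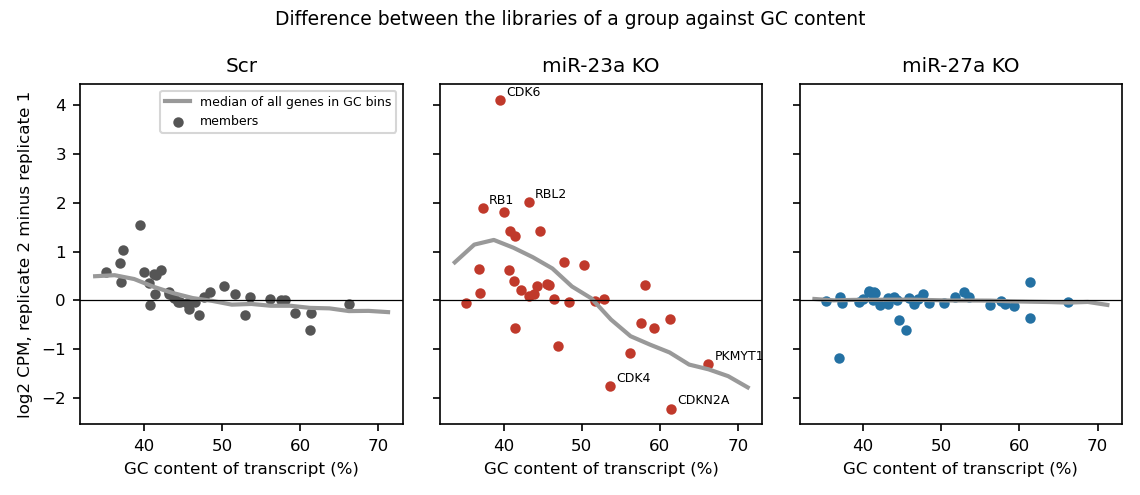
Log2 ratio of replicate 2 to replicate 1 on the y axis against transcript GC content in percent on the x axis, for the pair of each group, with points for the members and a line for the median of all genes in each bin of GC content. The miR-23a KO members fall from left to right, as do those of Scr. Of the 16 under 45% GC whose counts in the miR-23a KO pair reached 40, 14 were higher in replicate 2. Most miR-27a KO members lie near 0, the farthest being CCNE2 at -1.18 and CCND2 at -0.61.

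Among the members in Scr cells, levels per transcript length spanned a wide range. CDK4, the kinase partner of the D cyclins, was highest at 146 and 154 per kb. CKS2 and CKS1B, small adaptor proteins of CDK complexes, followed at 99.2 and 109 and at 98.4 and 79.9 per kb, values close enough that their order is not clear of the spread. CCND1, which encodes cyclin D1, stood at 65.2 and 79.6 per kb and CCNB1, the mitotic cyclin B1, at 59.02 and 64.6. The lowest members were CCNE2, cyclin E2, at 0.185 and 0.343 per kb, and CDKN2B, the INK4 inhibitor p15, at 0.472 and 0.464. Cyclin D2 was also low, at 1.30 and 1.25 per kb. HepG2 cells of the control group thus held far more CCND1 than CCND2 mRNA per length, and more CCNE1, at 45.6 and 36.9 per kb, than CCNE2. CDK6 and CDK4 share the D cyclins as partners, and CDK6 stood at 1.03 and 3.04 per kb, well under CDK4. RB1 stood at 1.94 and 3.98 per kb, its relatives RBL1 (p107) at 1.85 and 2.80 and RBL2 (p130) at 5.73 and 6.46, so RBL2 was the highest of the RB family.

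**Figure D2:**
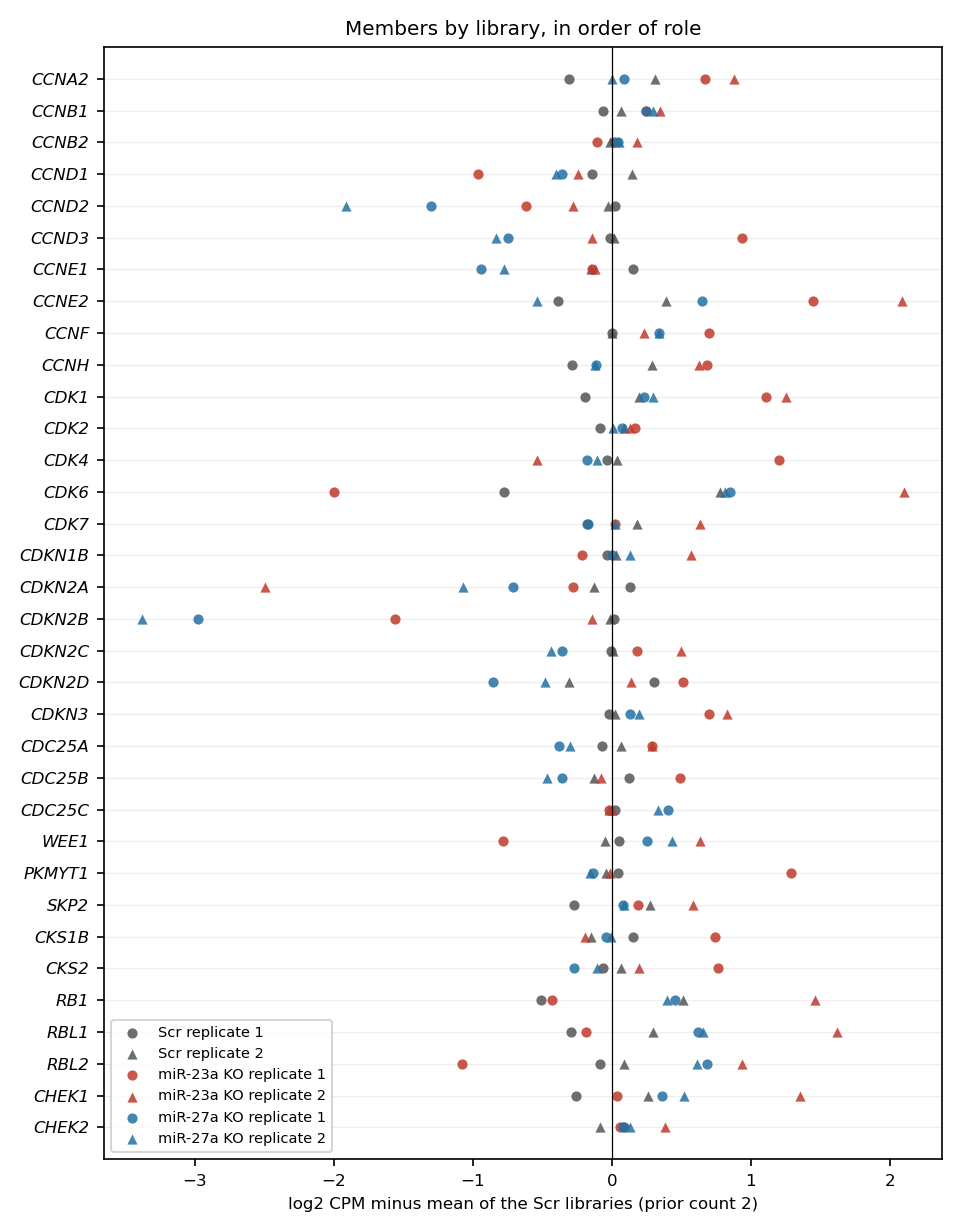
Level of each of the 34 members in each of the 6 libraries, as the log2 difference from the mean of the Scr libraries. The median of the members was 0.18 in replicate 1 and 0.32 in replicate 2 of miR-23a KO, against 0.02 and 0.00 in the libraries of miR-27a KO.

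The comparison of miR-27a KO with Scr cells asked which members differ between these groups. In miR-27a KO cells the cyclins CCND2, CCND3 and CCNE1 and the inhibitor CDKN2B fell, and the RB family member RBL2 rose. Of 34 members tested, 4 were called down, against 6.74% of 13820 genes, and 1 was called up, against 3.52% of genes. A call needed an adjusted p under 0.05 and a change of over 1.5-fold by the quasi-likelihood F-test of edgeR, Benjamini-Hochberg adjusted. The members' shares were 11.8% and 2.94%. At the study's q under 0.001, 0 members were called by edgeR, and the share of all genes is not given there. The study names no test for its q, so this 0 is not set against its counts. The smallest adjusted p in this comparison was 0.0157 among members and 0.000522 over all genes (edgeR, Benjamini-Hochberg). At an unadjusted p under 0.05, 6 members were higher and 9 lower, against 1902 and 2545 of all 13820 genes. DESeq2 called 1 up and 5 down at 0.05, against 566 and 1050 genes. Both miR-27a KO libraries exceeded both Scr libraries for 11 members, against 33.4% of genes, and lay below them for 13, against 31% of genes, shares of 32.4% and 38.2%. Fitted values were above 0 for 17 members and below 0 for 17, with a median log2 fold change of 0.01, equal to the 0.01 of all genes tested. Without replicate 1 of miR-27a KO, and without its replicate 2, edgeR called 0 members, up or down, while over all genes it called 0.776% and 0.574% up and 2.19% and 1.76% down. A fit of all 6 libraries, which takes in the miR-23a KO spread, also called 0 members, against 0.0212% of 14163 genes up and 0.431% down.

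The comparison of miR-23a KO with Scr cells asked the same for the miR-23a KO group. Most members had higher fitted values in miR-23a KO cells, led by CCNE2 and CDK1, but no member was called. Of 34 members tested, 0 were called up, against 0% of 13786 genes, and 0 down, against 0% of genes, by the edgeR test. DESeq2 called 0 members, against 0.0290% of genes up and 0.428% down. At an unadjusted p under 0.05, 2 members were higher, CCNE2 and CDK1, and 0 lower, against 118 and 214 of all 13786 genes, and the smallest adjusted p of a member was 0.9996 (Benjamini-Hochberg, edgeR). Fitted values were above 0 for 29 members, 85.3% against 63.0% of all genes tested, and below 0 for 5, and their median was 0.37 on the log2 scale, against 0.16 over all genes tested. Both miR-23a KO libraries exceeded both Scr libraries for 11 members, against 9.91% of genes, and lay below them for 4, against 13.7% of genes. Replicate 1 alone lay above both Scr libraries for 17 members and below both for 10, against 39.3% and 42.1% of genes, and replicate 2 for 22 and 7, against 41.1% and 43.5%. Without replicate 1, 1 member was called up, RBL1, and 1 down, CDKN2A, against 2.34% and 1.78% of 14417 genes, and the median was 0.32. Without replicate 2, 6 members were called up, CCND3, CDK1, CDK4, PKMYT1, CKS1B and CKS2, and 3 down, CCND1, CDK6 and RBL2, against 1697 up and 933 down of 14136 genes, and the median was 0.14.

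**Figure D3:**
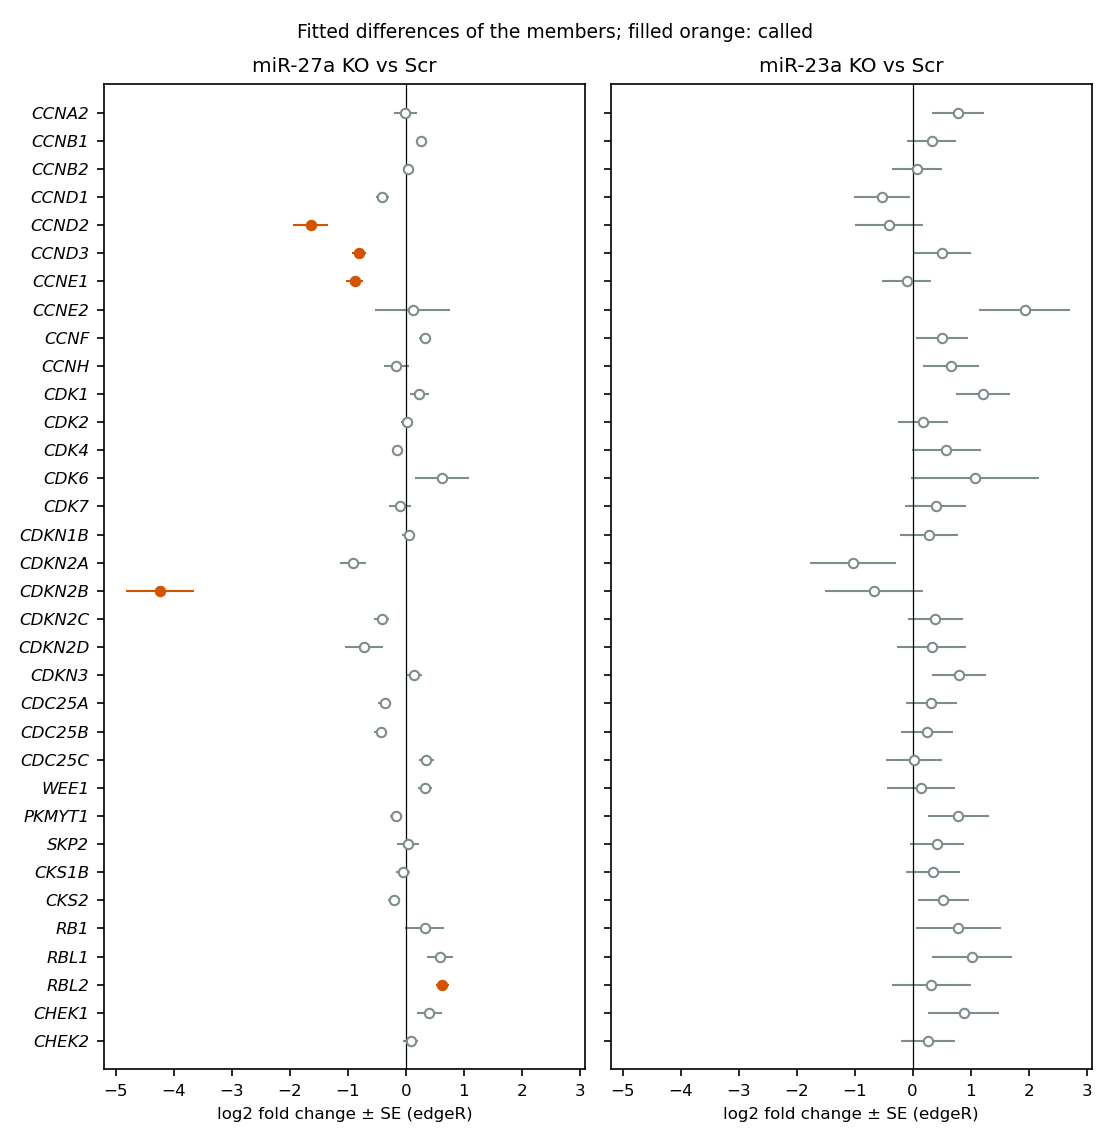
Fitted log2 fold change of each member (points) with its standard error (bars) for the comparisons of miR-23a KO and miR-27a KO with Scr. The bars of miR-23a KO are wide, with a median standard error of 0.48 against 0.13 in miR-27a KO, and CDKN2B in miR-27a KO lies farthest from 0, at -4.24.

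Among the mitotic cyclins, CCNA2, cyclin A2 of S phase and mitosis, had 46.5 and 71.3 CPM in the Scr pair, 91.5 and 106 in the miR-23a KO pair, and 61.1 and 57.5 in the miR-27a KO pair. CCNB1, whose product activates CDK1 at the entry into mitosis, had 128 and 140 CPM in the Scr pair, 159 and 170 in the miR-23a KO pair, and 159 and 164 in the miR-27a KO pair. For both cyclins the miR-23a KO libraries were higher than Scr, and for CCNB1 the miR-27a KO libraries were too. CCNB2, the related cyclin B2, had 72.8 and 71.1 CPM in the Scr pair, 66.7 and 81.6 in the miR-23a KO pair, and 74.1 and 74.5 in the miR-27a KO pair. CCNF, cyclin F, the substrate receptor of a ubiquitin ligase, had 41.1 and 41.1 CPM in the Scr pair, 66.7 and 48.2 in the miR-23a KO pair, and 52.1 and 52.00 in the miR-27a KO pair. All KO libraries exceeded Scr for CCNF, while the miR-23a KO libraries lay on either side of Scr for CCNB2. The fitted log2 fold change for miR-23a KO was 0.78 (SE 0.45) for CCNA2, with 0.85 without replicate 1 and 0.61 without replicate 2. For CCNF it was 0.51 (SE 0.44), with 0.23 without replicate 1 and 0.68 without replicate 2, and for CCNB1 0.33 (SE 0.43), with 0.34 without replicate 1 and 0.22 without replicate 2. Fitted log2 fold changes in miR-27a KO were 0.25 (SE 0.08, adjusted p = 0.104, edgeR, Benjamini-Hochberg) for CCNB1 and 0.32 (SE 0.09, adjusted p = 0.0811) for CCNF, neither called. For CCNB1 the value was 0.06 after correction for GC content and length.

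Of the D cyclins, which pair with CDK4 and CDK6 early in G1, CCND2 and CCND3 fell in miR-27a KO cells and CCND1 was not called. CCND2, cyclin D2, had 8.41 and 8.13 CPM in the Scr pair, 5.35 and 6.80 in the miR-23a KO pair, and 3.27 and 2.10 in the miR-27a KO pair. CCND3, cyclin D3, had 35.4 and 36.00 CPM in the Scr pair, 68.4 and 32.3 in the miR-23a KO pair, and 21.2 and 19.96 in the miR-27a KO pair. Both miR-27a KO libraries lay far below both Scr libraries for each gene. In miR-23a KO, CCND2 was below Scr in both libraries and CCND3 was high in replicate 1 alone. CCND2 fell by 1.64 on the log2 scale in miR-27a KO (SE 0.30, a 3.11-fold difference, adjusted p = 0.0297 by the quasi-likelihood F-test of edgeR, Benjamini-Hochberg adjusted), from counts of 123 and 121 to 54 and 35. CCND3 fell by 0.81 (SE 0.12, 1.76-fold, adjusted p = 0.0181, edgeR, Benjamini-Hochberg). Leaving out either miR-27a KO library ended both calls, with log2 fold changes of -1.98 without replicate 1 and -1.34 without replicate 2 for CCND2 and -0.85 without replicate 1 and -0.76 without replicate 2 for CCND3. So did the fit of all 6 libraries, with an adjusted p of 0.253 for CCND2 and 0.816 for CCND3 by edgeR, the highest of all alternatives, whose lowest were 0.00248 and 0.000650.

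CCND1, the main D cyclin of these cells, had 281 and 343 CPM in the Scr pair, 159 and 262 in the miR-23a KO pair, and 241 and 234 in the miR-27a KO pair. All KO libraries lay below both Scr libraries, with replicate 1 of miR-23a KO the lowest. Its log2 fold change was -0.41 in miR-27a KO (SE 0.11, adjusted p = 0.0712, edgeR, Benjamini-Hochberg), at -0.53 without Scr replicate 1 and -0.26 without Scr replicate 2. It was -0.52 in miR-23a KO (SE 0.48), with -0.25 without replicate 1 and -0.99 without replicate 2, and CCND1 was called down in miR-23a KO only in the fit without replicate 2. For CCND3 in miR-23a KO the value was 0.51 (SE 0.50), with -0.14 without replicate 1 and 0.92 without replicate 2, so its direction turned with the library left out and a call up came without replicate 2. CCND2 in miR-23a KO stood at -0.40 (SE 0.58), with -0.28 without replicate 1 and -0.65 without replicate 2.

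The E cyclins pair with CDK2 at the start of S phase. CCNE1, cyclin E1, had 93.1 and 75.4 CPM in the Scr pair, 76.03 and 77.1 in the miR-23a KO pair, and 43.6 and 48.9 in the miR-27a KO pair. Both miR-27a KO libraries lay below all the others, and the miR-23a KO libraries lay within the range of Scr. CCNE1 fell by 0.88 on the log2 scale in miR-27a KO (SE 0.14, 1.85-fold, adjusted p = 0.0220 by the quasi-likelihood F-test of edgeR, Benjamini-Hochberg adjusted). Without replicate 1 or replicate 2 of miR-27a KO its log2 fold change was -0.80 and -0.96, and neither was called, nor was the fit of all 6 libraries (adjusted p = 0.402 by edgeR, where the alternatives ranged from 4.49e-05 to 0.402). CCNE2 was near the limit of detection, with 9 and 17 counts in the Scr pair, 33 and 73 in the miR-23a KO pair, and 23 and 9 in the miR-27a KO pair. Its counts were highest in both miR-23a KO libraries and overlapped between miR-27a KO and Scr. The ratio of summed counts of miR-23a KO to Scr, scaled for library size, was 3.84, with a 95% exact interval of 2.48 to 6.15 that covers counting error only. The fitted log2 fold change was 1.93 (SE 0.78, unadjusted p = 0.0378, adjusted p = 0.9996, edgeR, Benjamini-Hochberg), with 2.18 without replicate 1 and 1.49 without replicate 2, and it was 1.43 after correction for GC content and length.

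CCNH, cyclin H, and CDK7 form the kinase that activates other CDKs. CCNH had 16.8 and 25.1 CPM in the Scr pair, 32.9 and 31.7 in the miR-23a KO pair, and 18.95 and 18.8 in the miR-27a KO pair. CDK7 had 13.1 and 16.9 CPM in the Scr pair, 15.1 and 23.2 in the miR-23a KO pair, and 13.2 and 15.1 in the miR-27a KO pair. The miR-23a KO libraries lay above Scr for CCNH, and for CDK7 replicate 1 lay within the Scr range. The log2 fold change of CCNH in miR-23a KO was 0.66 (SE 0.48), with 0.60 without replicate 1 and 0.63 without replicate 2, and 0.11 after correction for GC content and length. In miR-27a KO both genes overlapped Scr.

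CDK1, the kinase that drives mitosis, had 17.6 and 22.97 CPM in the Scr pair, 43.5 and 48.01 in the miR-23a KO pair, and 23.6 and 24.6 in the miR-27a KO pair. Both miR-23a KO libraries were well above both Scr libraries, and the miR-27a KO libraries lay just above the higher Scr library. Its fitted log2 fold change for miR-23a KO was 1.21 (SE 0.47, 2.31-fold, unadjusted p = 0.0323, adjusted p = 0.9996, edgeR, Benjamini-Hochberg). It was 1.24 without replicate 1 and 1.08 without replicate 2, with a call up in the latter, and 0.77 after correction for GC content and length. In miR-27a KO CDK1 stood at 0.23 (SE 0.17, adjusted p = 0.394, edgeR, Benjamini-Hochberg), at 0.07 without Scr replicate 1 and 0.44 without Scr replicate 2. CDK2, the partner of cyclins E and A, had 46.2 and 52.1 CPM in the Scr pair, 55.2 and 53.7 in the miR-23a KO pair, and 51.5 and 49.4 in the miR-27a KO pair, a narrow range in which the miR-23a KO libraries were highest. Its fitted log2 fold change for miR-23a KO was 0.18 (SE 0.43), with 0.13 without replicate 1 and 0.14 without replicate 2.

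CDK4 and CDK6, the kinases of the D cyclins, showed how far the miR-23a KO pair was apart. CDK4 had 304 and 319 CPM in the Scr pair, 717 and 214 in the miR-23a KO pair, and 275 and 290 in the miR-27a KO pair. CDK6 had 11.97 and 35.3 CPM in the Scr pair, 5.04 and 88.7 in the miR-23a KO pair, and 37.2 and 36.3 in the miR-27a KO pair. Replicate 1 of miR-23a KO held the most CDK4 and the least CDK6 of any library, and replicate 2 the reverse. The log2 fold change of CDK4 in miR-23a KO was 0.58 (SE 0.59), with -0.54 without replicate 1 and 1.18 without replicate 2, the last a call up. For CDK6 it was 1.07 (SE 1.10), with 1.91 without replicate 1 and -2.25 without replicate 2, the last a call down. The Scr libraries differed for CDK6 as well, so that its log2 fold change in miR-27a KO, 0.62 (SE 0.47, adjusted p = 0.409, edgeR, Benjamini-Hochberg), was 0.05 without Scr replicate 1 and 1.60 without Scr replicate 2, where it was called up. CDK4 in miR-27a KO stood at -0.16 (SE 0.08), with both libraries below Scr.

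The INK4 inhibitors, which bind CDK4 and CDK6, had 4 members, all lower in both miR-27a KO libraries than in both Scr libraries, as were 31% of genes, and only CDKN2B was called. CDKN2B, p15, had 27 and 27 counts in the Scr pair, 7 and 30 in the miR-23a KO pair, and 2 and 1 in the miR-27a KO pair. Its mRNA was thus nearly absent in miR-27a KO, while replicate 2 of miR-23a KO held close to the Scr level. The ratio of summed counts of Scr to miR-27a KO, scaled for library size, was 20.2, with a 95% exact interval of 6.56 to 101 that covers counting error only. The fitted value fell by 4.24 on the log2 scale (SE 0.59, adjusted p = 0.0157 by the quasi-likelihood F-test of edgeR, Benjamini-Hochberg adjusted). That call was lost in the fit of all 6 libraries (adjusted p = 0.168 by edgeR, where the alternatives ranged from 0.00260 to 0.168) and without either miR-27a KO library, where the log2 fold change was -4.76 without replicate 1 and -3.84 without replicate 2. In miR-23a KO, CDKN2B stood at -0.67 (SE 0.84), with -0.15 without replicate 1 and -1.78 without replicate 2.

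CDKN2A lies beside CDKN2B on chromosome 9 and encodes the INK4 inhibitor p16 and, in another reading frame, ARF, which values per gene do not separate. CDKN2A had 16.9 and 14.1 CPM in the Scr pair, 12.7 and 2.63 in the miR-23a KO pair, and 9.39 and 7.27 in the miR-27a KO pair. All KO libraries lay below both Scr libraries, and replicate 2 of miR-23a KO was the lowest of all. In miR-27a KO its log2 fold change was -0.91 (SE 0.22) with an adjusted p of 0.0520 by edgeR (Benjamini-Hochberg), just short of a call. It was called down by DESeq2 (adjusted p = 0.0244, in a range of 0.00308 to 0.981 over the alternatives), with the replicate block, and without either Scr library, at -0.76 without Scr replicate 1 and -1.04 without Scr replicate 2. In miR-23a KO the value was -1.03 (SE 0.74), with -2.55 without replicate 1 and -0.31 without replicate 2, and only the fit without replicate 1 called it. CDKN2C, p18, had 21.7 and 21.9 CPM in the Scr pair, 24.8 and 30.8 in the miR-23a KO pair, and 16.95 and 16.1 in the miR-27a KO pair. CDKN2D, p19, had 7.86 and 5.10 CPM in the Scr pair, 9.09 and 6.97 in the miR-23a KO pair, and 3.45 and 4.51 in the miR-27a KO pair. The libraries of CDKN2C lay above Scr in miR-23a KO and below it in miR-27a KO, where the log2 fold change was -0.42 (SE 0.14, adjusted p = 0.103, edgeR, Benjamini-Hochberg). For CDKN2D it was -0.72 (SE 0.33, adjusted p = 0.198), at -0.36 without Scr replicate 1 and -1.002 without Scr replicate 2, where it was called down.

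CDKN1B, the CIP/KIP inhibitor p27, had 34.5 and 36.1 CPM in the Scr pair, 30.4 and 52.5 in the miR-23a KO pair, and 35.3 and 38.5 in the miR-27a KO pair. The groups overlapped for CDKN1B in both comparisons with Scr. CDKN3, a phosphatase that acts on CDKs, had 20.7 and 21.4 CPM in the Scr pair, 34.2 and 37.5 in the miR-23a KO pair, and 23.01 and 24.05 in the miR-27a KO pair, with both miR-23a KO libraries well above the others and the miR-27a KO libraries slightly above Scr. CDKN3 in miR-23a KO had a log2 fold change of 0.81 (SE 0.46, 1.75-fold, adjusted p = 0.9996, edgeR, Benjamini-Hochberg), with 0.83 without replicate 1 and 0.68 without replicate 2, and it stood in miR-27a KO at 0.14 (SE 0.13). With CDK1, CDKN3 was among the members whose higher level in miR-23a KO was of like size in both libraries.

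**Figure D4:**
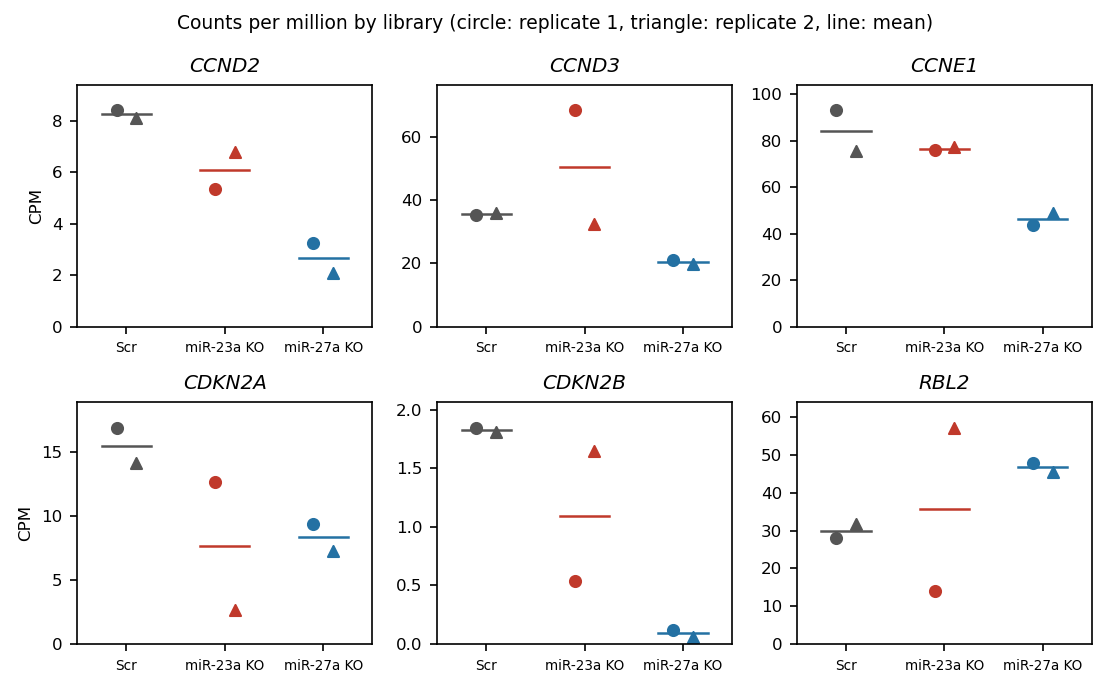
Level in CPM of members called in miR-27a KO or close to a call, for each of the 6 libraries (points), with the axis of each panel starting at 0. CCND2, CCND3, CCNE1 and CDKN2B lie below Scr in both miR-27a KO libraries and RBL2 above it, with 45.6 CPM in the lower of them against 31.7 in the higher Scr library.

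The CDC25 phosphatases activate CDKs by removing inhibitory phosphates. CDC25A, which acts at the entry into S phase, had 37.9 and 41.6 CPM in the Scr pair, 48.6 and 48.6 in the miR-23a KO pair, and 30.5 and 32.2 in the miR-27a KO pair. CDC25B, a starter of mitosis, had 188 and 158 CPM in the Scr pair, 243 and 163 in the miR-23a KO pair, and 134 and 125 in the miR-27a KO pair. Both were lower in the miR-27a KO libraries than in all others, and CDC25A was higher than Scr in both miR-23a KO libraries. CDC25C, which activates CDK1 at mitosis, had 18.7 and 18.2 CPM in the Scr pair, 18.2 and 18.5 in the miR-23a KO pair, and 24.5 and 23.3 in the miR-27a KO pair, with the miR-27a KO libraries above all others. In miR-27a KO the log2 fold changes were -0.36 (SE 0.11) for CDC25A, -0.44 (SE 0.12) for CDC25B and 0.35 (SE 0.13) for CDC25C, with adjusted p of 0.0940, 0.0663 and 0.140 by edgeR (Benjamini-Hochberg), none called, and CDC25B stood at -0.29 without Scr replicate 1 and -0.56 without Scr replicate 2. In miR-23a KO CDC25A stood at 0.32 (SE 0.44), with 0.29 without replicate 1 and 0.27 without replicate 2. WEE1, the nuclear kinase that restrains CDK1, had 30.4 and 28.5 CPM in the Scr pair, 17.04 and 45.8 in the miR-23a KO pair, and 35.1 and 39.7 in the miR-27a KO pair. PKMYT1, its membrane-bound relative, had 44.9 and 42.4 CPM in the Scr pair, 107 and 43.2 in the miR-23a KO pair, and 39.7 and 39.1 in the miR-27a KO pair. For WEE1 the miR-27a KO libraries were above Scr and the miR-23a KO libraries on either side of it, and for PKMYT1 replicate 1 of miR-23a KO stood alone above the rest. In miR-27a KO the fitted log2 fold change was 0.33 (SE 0.12) for WEE1 and -0.17 (SE 0.10) for PKMYT1.

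SKP2, the F-box protein that marks p27 for destruction, had 37.00 and 54.3 CPM in the Scr pair, 51.04 and 67.4 in the miR-23a KO pair, and 47.4 and 47.7 in the miR-27a KO pair. CKS1B, its cofactor in that step, had 89.7 and 72.9 CPM in the Scr pair, 135 and 70.6 in the miR-23a KO pair, and 78.6 and 80.6 in the miR-27a KO pair. CKS2, the related adaptor, had 60.8 and 66.6 CPM in the Scr pair, 108 and 72.8 in the miR-23a KO pair, and 52.7 and 59.1 in the miR-27a KO pair. Replicate 1 of miR-23a KO was the highest library for both CKS genes, and for CKS2 replicate 2 was above Scr as well. The miR-27a KO libraries lay below Scr for CKS2 and between the Scr libraries for SKP2 and CKS1B. CKS2 stood at a log2 fold change of 0.53 (SE 0.44) in miR-23a KO, with 0.19 without replicate 1 and 0.74 without replicate 2, the last a call up, and -0.21 (SE 0.11, adjusted p = 0.242, edgeR, Benjamini-Hochberg) in miR-27a KO.

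The RB family holds back E2F factors, RB1 mainly activating E2Fs and RBL1 and RBL2 mainly the repressive E2F4 and E2F5. RBL2, p130, had 28.1 and 31.7 CPM in the Scr pair, 14.1 and 57.3 in the miR-23a KO pair, and 48.02 and 45.6 in the miR-27a KO pair. Both miR-27a KO libraries exceeded Scr, and the miR-23a KO libraries lay on either side of Scr. RBL2 rose in miR-27a KO by a log2 fold change of 0.63 (SE 0.11, 1.55-fold, adjusted p = 0.0285 by the quasi-likelihood F-test of edgeR, Benjamini-Hochberg adjusted), close to the fold needed for a call. The call was lost with no filter on low counts (adjusted p = 0.0504), after correction for GC content and length (log2 fold change 0.42), in the fit of all 6 libraries (adjusted p = 0.991), without Scr replicate 1 (0.56) and without either miR-27a KO library (0.60 without replicate 1 and 0.68 without replicate 2), with adjusted p from 0.000595 to 0.991 over the edgeR and DESeq2 alternatives. In miR-23a KO the value was 0.32 (SE 0.68), with 0.94 without replicate 1 and -1.11 without replicate 2, the last a call down.

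RB1 had 9.30 and 19.1 CPM in the Scr pair, 9.86 and 36.9 in the miR-23a KO pair, and 18.3 and 17.6 in the miR-27a KO pair. RBL1, p107, had 10.5 and 15.9 CPM in the Scr pair, 11.4 and 40.1 in the miR-23a KO pair, and 19.9 and 20.4 in the miR-27a KO pair. In both genes Scr replicate 1 and miR-23a KO replicate 1 were low and miR-23a KO replicate 2 was the highest library, while the miR-27a KO libraries lay together. RBL1 was above both Scr libraries in miR-27a KO, with a log2 fold change of 0.59 (SE 0.22, adjusted p = 0.143, edgeR, Benjamini-Hochberg), 0.34 without Scr replicate 1 and 0.92 without Scr replicate 2. For RB1 the fitted log2 fold change in miR-27a KO was 0.32 (SE 0.34), -0.09 without Scr replicate 1 and 0.93 without Scr replicate 2. Both genes were called up in the fit without Scr replicate 2 alone. In miR-23a KO RB1 stood at 0.79 (SE 0.73), with 1.38 without replicate 1 and -0.55 without replicate 2. RBL1 was called up in miR-23a KO only in the fit without replicate 1, which leaves the library with 40.1 CPM.

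The checkpoint kinases halt the cycle after DNA damage or stalled replication by inhibiting CDC25 phosphatases. CHEK1 had 10.6 and 15.2 CPM in the Scr pair, 12.99 and 32.6 in the miR-23a KO pair, and 16.3 and 18.2 in the miR-27a KO pair. CHEK2 had 28.04 and 24.9 CPM in the Scr pair, 27.5 and 34.4 in the miR-23a KO pair, and 27.9 and 28.98 in the miR-27a KO pair. Replicate 2 of miR-23a KO was the highest library for both. The miR-27a KO libraries lay above Scr for CHEK1 and overlapped Scr for CHEK2. CHEK1 stood in miR-27a KO at a log2 fold change of 0.41 (SE 0.22, adjusted p = 0.257, edgeR, Benjamini-Hochberg), 0.18 without Scr replicate 1 and 0.68 without Scr replicate 2, where it was called up.

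The comparison of miR-23a KO with miR-27a KO cells tested whether the groups' differences from Scr differ, since the comparisons above share the Scr libraries. Fitted values were above 0, higher in miR-23a KO than in miR-27a KO, for 27 members, 81.8% against 57.6% of all genes tested, among them CCND3, CDK1 and CCND2, and no member was called. Of 33 members tested, CDKN2B being too low to test, 0 were called up and 0 down by the edgeR test, against 0% of 13841 genes each way. DESeq2 called 0 members, against 1.87% of genes up and 1.58% down. At an unadjusted p under 0.05, 2 members were higher, CDK1 and CCND3, and 0 lower, against 645 and 562 of all 13841 genes. For 16 members, against 19.7% of genes, each miR-23a KO library exceeded both miR-27a KO libraries, and for 1, CDC25C, against 19.9% of genes, each was below both. The median log2 fold change was 0.38, against 0.11 over all genes. CCND3 stood at 1.28 (SE 0.48, adjusted p = 0.550, edgeR, Benjamini-Hochberg), with 0.62 without replicate 1 and 1.73 without replicate 2, CDK1 at 0.91 (SE 0.31), with 0.96 without replicate 1 and 0.85 without replicate 2, and CCND2 at 1.16 (SE 0.47), with 1.30 without replicate 1 and 0.99 without replicate 2. CCNE1 stood at 0.71 (SE 0.31), with 0.70 without replicate 1 and 0.71 without replicate 2. Without replicate 1 of miR-23a KO, 17 of 34 members were called up, CDKN2B being tested there, and 1 down, against 19.3% and 14.9% of 14361 genes, and without replicate 2, 14 of 33 up and 5 down, against 25.2% and 26.2% of 14207 genes. The lone library left in such a fit was assumed to vary like the libraries of the other group.

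Letters that pair with the seed of miR-23a-3p were found in the 3' UTR of 7 of 34 members, 20.6%, against 19.7% of 12290 genes tested with an annotated UTR (GENCODE release 29, GRCh38). The members were CCNB2, CCND1, CCNF, CCNH, CDK6, CDKN2B and RBL2. Letters for miR-27a-3p were found in 2 of 34 members, CDK6 and WEE1, 5.88% against 17.1% of 12301 genes. Stretches are shown for 5 of these members, 30 bases on the strand of the gene, with the letters AATGTGA or ACTGTGA in capitals.
CCNF chr16:2457665-2457694 plus strand, miR-23a-3p: acagatggcgtcAATGTGAacacctctctt
CCNH chr5:87394346-87394375 minus strand, miR-23a-3p: tttaaaaagtatAATGTGAaaacataaaat
CDKN2B chr9:22004963-22004992 minus strand, miR-23a-3p: gctctcagttaaAATGTGAggaagaactac
RBL2 chr16:53490994-53491023 plus strand, miR-23a-3p: agcactttctacAATGTGAactttattaaa
CDK6 chr7:92613238-92613267 minus strand, miR-23a-3p: tctttgcagcttAATGTGAtatatgactat
CDK6 chr7:92611850-92611879 minus strand, miR-27a-3p: caggaagcacacACTGTGAatggcagactt
In miR-23a KO the 7 members with the miR-23a-3p letters had a median log2 fold change of 0.32 and the 27 without them 0.39, while over all genes the medians were 0.23 with and 0.15 without. Of the 7, 5 had higher fitted values in miR-23a KO, as did 1657 of the 2423 genes with the letters. In miR-27a KO the 2 members with the miR-27a-3p letters, CDK6 and WEE1, had log2 fold changes of 0.62 and 0.33, and CDK6 stood at 0.05 without Scr replicate 1. The 32 members without them had a median of -0.03, and over all genes the medians were 0.07 with the letters, where 1191 of 2104 were higher, and -0.01 without. None of the 5 members called in miR-27a KO held the miR-27a-3p letters in its longest annotated 3' UTR.

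The table of RefSeq promoters used here (GRCh38.p14) held 28 of 34 members, and not CCNE2, WEE1, CCND2, PKMYT1, CDK2 and CCND1. The letters CCAAT, searched on both strands in the 250 bases before each start that RefSeq lists, were in promoters of 18 of the 28 members, 24 of 45 windows, against 32.0% of all 35116 windows. TTTGAA, the cell cycle homology element, was in those of 7 members, 8 of 45 windows, against 13.3% of all windows. All of these 8 windows held CCAAT too, as did 1646 of all 4677 windows with TTTGAA. Both were thus in 8 of 45 member windows, against 4.69% of all windows. The 7 members were CCNB2, CCNF, CDK1, CDKN3, CDC25C, CKS1B and CKS2. The E2F letters TTTGGCGC were in promoters of CDC25A and RBL1 (0.55% of all windows), TTTCGCGC in those of CDK1 and RBL1 (0.439%) and TTCCCGCC in those of CDKN2C and CDC25B (2.72%). GGGCGG was in 32 of 45 member windows, against 42.6% of all, and TATAAA in 0 of 45, against 10.7% of all. To show how the letters lie, parts of the windows of CCNF, CDKN3 and CKS2, from the 7 members with TTTGAA, are given. CCAAT and TTTGAA are in capitals, and RBL1 is given with the E2F letters in capitals. Each part ends at the RefSeq start or, for CCNF and CDKN3, at the GENCODE start of the gene, which lies before it. The far end was shortened too for CDKN3, CKS2 and RBL1, of which 60, 158 and 120 bases are shown. A match on the other strand is printed as ATTGG or TTCAAA.
CCNF chr16:2429197-2429393 plus strand: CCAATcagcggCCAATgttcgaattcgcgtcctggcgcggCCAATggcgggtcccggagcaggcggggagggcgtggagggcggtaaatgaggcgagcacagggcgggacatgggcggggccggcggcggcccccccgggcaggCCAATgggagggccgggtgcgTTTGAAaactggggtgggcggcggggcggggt
CDKN3 chr14:54396789-54396848 plus strand: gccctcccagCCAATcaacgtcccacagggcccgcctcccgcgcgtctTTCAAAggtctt
CKS2 chr9:89311037-89311194 plus strand: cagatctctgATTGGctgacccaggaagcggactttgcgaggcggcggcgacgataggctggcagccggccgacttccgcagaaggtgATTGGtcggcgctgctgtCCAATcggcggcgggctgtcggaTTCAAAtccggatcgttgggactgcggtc
RBL1 chr20:37095998-37096117 minus strand: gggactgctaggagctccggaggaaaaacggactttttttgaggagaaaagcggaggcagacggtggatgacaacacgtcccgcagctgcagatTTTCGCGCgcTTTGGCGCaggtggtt
The matches describe letters in these windows and show no binding.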

How the data were processed

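RNA-seq of 6 HepG2 libraries was analysed, 2 per group. The authors deposited estimated counts per gene in columns named FPKM. They were taken for counts since their totals differ between libraries and, of the values above 0, from 34.5% to 40.8% per library are exactly whole, and were rounded to whole counts. The submitters' processing notes name HISAT, StringTie, Cufflinks and GATK without role or version. Value columns not used numbered 0. Each pair of groups was fitted alone over all genes with filterByExpr, TMM factors, glmQLFit and glmQLFTest (edgeR 4.0.16, R 4.3.3) and Benjamini-Hochberg adjustment over the genes tested. Calls needed an adjusted p under 0.05 and over 1.5-fold change, and the count at the study's q under 0.001 is given beside. CPM used TMM factors of all 6 libraries, and log2 CPM a prior count of 2. Transcript length, GC content and 3' UTRs came from GENCODE release 29, where 17915 IDs matched (89.5%), all 34 members among them. CPM per kb used the longest coding transcript.

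Alternatives were median-ratio size factors, DESeq2 1.42.0, no filter on low counts, all 6 libraries in a single fit, replicate numbers entered as a block, loess correction for GC content and length (span 0.5, degree 2), that correction with the block, and leaving out each library, where a lone library is assumed to vary like the other group. The workflow was tested on simulated data. All 34 members were named. Fitted values were considered for members called in any comparison, for those without overlap of the libraries in the comparison at hand, and for CDK4, CDK6, RB1 and CDKN2A, and not all of them are printed. Gene lists were DREAM and E2F, other cyclins, CDKs and inhibitors, turnover and mitotic kinases, proliferation markers, checkpoint partners, and the markers of cell types. Members and lists were chosen with earlier results of these data known. Levels of the targeted miRNAs were not analysed.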

Additional observations from a re-analysis of the deposited data

Results flagged for a closer look

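CDKN2C, CDC25A and CKS2 were higher than Scr in both miR-23a KO libraries and lower than Scr in both miR-27a KO libraries. Of the 34 members these 3 did so, 8.82%, and of 14163 genes 853 lay on opposite sides in either order, 6.02%. CDKN2C encodes the CDK4 and CDK6 inhibitor p18, CDC25A a phosphatase that activates CDKs, and CKS2 an adaptor of CDK complexes. The difference between the KO groups was tested directly by the quasi-likelihood F-test of edgeR, Benjamini-Hochberg adjusted, and none of the 3 was called. The log2 fold change of miR-23a KO against miR-27a KO was 0.74 for CDKN2C (SE 0.33, adjusted p = 0.664, edgeR), 0.62 for CDC25A (SE 0.31, adjusted p = 0.704) and 0.68 for CKS2 (SE 0.36, adjusted p = 0.736). Without replicate 1 of miR-23a KO the values were 0.86, 0.60 and 0.34, with CDKN2C and CDC25A called up, and without replicate 2 they were 0.58, 0.63 and 0.95, with CDC25A and CKS2 called up. The genes were picked for this pattern once their values were seen, so a positive difference between the KO groups follows from the choice. The fits with a library left out leave 1 library in miR-23a KO and called 19.3% and 25.2% of all genes up. The cause was not tested.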

How the results depend on the processing

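Median-ratio size factors, DESeq2 and the replicate block left the number of members called up at 1 in miR-27a KO and called 4, 5 and 5 down. These settings called from 3.48% to 4.52% of all genes up and from 6.78% to 7.74% down. The members called up in miR-27a KO numbered 0 with no filter on low counts, 0 in the fit of all 6 libraries, 0 after correction for GC content and length and 0 with the block and that correction together, and from 0 to 5 with a library left out. Those called down numbered 0 in the fit of all 6 libraries, which takes in the wider spread of miR-23a KO, and from 0 to 6 with a library left out. Over all genes such a fit called up to 13.3% up and 12.6% down, both without Scr replicate 2. Of all genes, 1.57% were called up in miR-27a KO with no filter on low counts and 0.0212% in the fit of all 6 libraries. Correction for GC content and length called 4.24% up, and 5.397% with the block as well. The median of the members in miR-27a KO was -0.0699 after correction for GC content and length, -0.0907 with the block as well, and from -0.15 to 0.0832 with a library left out. In miR-23a KO against Scr, 0 to 6 members were called up and 0 to 3 down with a library left out, with a median from 0.14 to 0.40. In miR-23a KO against miR-27a KO, 1 was called up with the block and GC content and length corrected, CCND3, 0 to 17 up and 0 to 5 down with a library left out, and the median was 0.29 with the block and from 0.36 to 0.54 with a library left out. Between the KO groups, the fit with the block and the correction for GC content and length called 4.73% of 13190 genes up and 4.46% down. Fits without a miR-23a KO library called a larger share of all genes than the main fits, against Scr and against miR-27a KO alike. Their counts of members called are to be read against those shares, which are given with each comparison above. Without replicate 2 of miR-23a KO a call against the fitted direction came for CDK6 (-2.25) and RBL2 (-1.11) against Scr, and for CDK6 (-2.87), RB1 (-0.87), CDKN2A (0.60) and RBL1 against miR-27a KO, and RB1 turned against Scr without a call. With a library left out the values ranged up to 2.04 for CDK6 and 0.94 for RBL2 against Scr. Against miR-27a KO they ranged up to 1.24 for CDK6 and 1.003 for RB1, and down to -1.69 for CDKN2A. Of the fitted values of members named in a comparison by the rule for named genes, those just given except for RBL1 included, 142 of 147, 159 of 175 and 148 of 154 kept direction and side of the threshold under the other settings in miR-23a KO, in miR-27a KO and between them, and 72 of 84, 81 of 100 and 55 of 88 with a library left out. The replicate numbers were not taken as pairs in the main fits. Deviations between replicates correlated across genes at 0.15 between Scr and miR-23a KO. They correlated at 0.01 between Scr and miR-27a KO, and at 0.02 between the KO groups. Fewer libraries remain in a fit that leaves a library out, and otherwise the cause was not tested. With 1 to 73 counts, the depth limits what CDKN2B and CCNE2 can show.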

Other observations

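Other genes of the cycle were read from the same fits. In miR-27a KO cells the inhibitor CDKN1A, p21, fell, as did the repressive factors E2F4 and E2F5, which work with RBL1 and RBL2. CDKN1A had 378 and 320 CPM in the Scr pair, 539 and 164 in the miR-23a KO pair, and 138 and 132 in the miR-27a KO pair. Both miR-27a KO libraries lay below all the others, and it fell by 1.39 on the log2 scale (SE 0.11, adjusted p = 0.00558, edgeR). E2F4 had 216 and 217 CPM in the Scr pair, 334 and 174 in the miR-23a KO pair, and 132 and 132 in the miR-27a KO pair and fell by 0.73 in miR-27a KO (SE 0.07, adjusted p = 0.00857, edgeR). E2F5 had 44.1 and 42.6 CPM in the Scr pair, 39.6 and 50.9 in the miR-23a KO pair, and 27.1 and 28.4 in the miR-27a KO pair and fell by 0.66 (SE 0.11, adjusted p = 0.0232, edgeR). TFDP2, a partner of E2F factors, rose by 0.89 (SE 0.12, adjusted p = 0.0149, edgeR), and E2F7, a repressor, rose by 0.85 (SE 0.19, adjusted p = 0.0462, edgeR). In all, 2 of 17 DREAM and E2F genes were called up and 2 down, with a median log2 fold change of 0.08, and 0 of 26 tested other cyclins, CDKs and inhibitors up and 3 down, with a median of 0.13, against 3.52% up and 6.74% down over all genes tested. CDK14 and CCNO, the other genes called down there, had at most 0.182 CPM in miR-27a KO. The 14 turnover and mitotic kinase genes, the 8 proliferation markers and the 12 checkpoint partners had 0 calls each by edgeR in miR-27a KO, with medians of 0.16, 0.28 and 0.17 against 0.01 over all genes tested. The genes given values here were picked for being called, once their results were seen, which departs from the design, where the largest mean CPM came first. These lists were not refitted under the alternatives.

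In miR-23a KO cells edgeR called 0 genes of these lists. The medians were 0.24 for DREAM and E2F, 0.16 for other cyclins, CDKs and inhibitors, 0.48 for turnover and mitotic kinases, 0.38 for proliferation markers and 0.39 for checkpoint partners, against 0.16 over all genes tested. By library, relative to the mean of Scr, the medians in replicates 1 and 2 had opposite signs for DREAM and E2F (-0.11 and 0.31), for other cyclins, CDKs and inhibitors (-0.21 and 0.31) and for proliferation markers (-0.05 and 0.13). They were 0.17 and 0.27 for turnover and mitotic kinases and 0.04 and 0.78 for checkpoint partners, against -0.03 and -0.03 over all genes.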
